A study of Mus musculus with 6 samples.

Results

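To describe the platelet-derived growth factor (PDGF) system of MC-38 tumor cells with and without knockdown of HIF-1α, 7 of the 22880 genes measured were chosen by name. These are the ligand genes Pdgfa, Pdgfb, Pdgfc and Pdgfd, the receptor genes Pdgfra and Pdgfrb, and the receptor-like gene Pdgfrl. The cells were MC-38 mouse colon adenocarcinoma cells carrying green fluorescent protein, grown as orthotopic tumors in the cecum wall of C57BL/6J mice and sorted as fluorescent cells negative for CD45 and CD31. Both groups had been transduced with the lentiviral vector pLKO.1-puro and had not been passaged in vivo. In the HIF-1α-KD group (3 libraries) the HIF-1α transcript was knocked down by a stable short hairpin RNA, in the Mock group (3 libraries) it was not, and the host stroma of both kept normal HIF-1α. The sources used here do not give the age of the mice, whether the knockdown line is 1 clone, or whether a library holds the cells of a single tumor, so the p-values measure the spread between these libraries, which may be technical.

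PDGF ligands are secreted dimers that bind receptor tyrosine kinases. PDGF-A and PDGF-C act mainly through the α receptor, PDGF-D through the β receptor, and PDGF-B through both. PDGF-B released by endothelium recruits pericytes, which carry the β receptor, and fibroblasts can carry both receptors. Hypoxia-inducible factors bind DNA at short elements around the letters ACGTG or GCGTG.

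Because HIF-1α acts through such elements, the sequence before the transcription start is shown for the ligand gene with the smallest p-value (Pdgfa), the ligand gene with the largest negative difference (Pdgfd) and the α receptor gene, whose groups had nearly equal means. The sequences are from RefSeq (GRCm38.p6), which gave windows for Pdgfa, Pdgfc, Pdgfd and Pdgfra. They run from 5′ to 3′ on the strand of the gene, and capitals mark a match on either strand to ACGTG or GCGTG, to the GC box (GGGCGG) or to the Egr1 motif (GCGTGGGCG), in which GCGTG is contained. Pdgfa is shown from chr5:138995038-138995194 on the minus strand. The 93 bases next to the RefSeq start, which lie in an annotated exon, were left out and not searched. RefSeq gave 2 windows for Pdgfa, of which the upstream one is shown and the other was not searched. The sequence shown lies inside the longer span of Pdgfa in GENCODE. Pdgfd is shown from chr9:6168236-6168485 and Pdgfra from chr5:75152001-75152250, both on the plus strand.
Pdgfa: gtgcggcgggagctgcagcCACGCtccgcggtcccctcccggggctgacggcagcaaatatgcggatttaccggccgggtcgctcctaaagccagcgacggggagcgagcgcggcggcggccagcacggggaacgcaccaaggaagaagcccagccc
Pdgfd: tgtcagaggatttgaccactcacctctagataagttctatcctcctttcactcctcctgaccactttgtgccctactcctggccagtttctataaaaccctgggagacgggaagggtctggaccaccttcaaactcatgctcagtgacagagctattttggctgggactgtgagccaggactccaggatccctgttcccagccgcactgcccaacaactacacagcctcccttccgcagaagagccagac
Pdgfra: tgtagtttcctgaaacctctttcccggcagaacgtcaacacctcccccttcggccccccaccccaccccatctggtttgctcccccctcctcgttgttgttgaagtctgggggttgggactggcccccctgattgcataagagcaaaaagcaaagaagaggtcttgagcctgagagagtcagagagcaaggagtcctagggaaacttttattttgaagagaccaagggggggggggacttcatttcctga
The Pdgfa sequence of 157 bases held 1 match to GCGTG, which begins at base 20 and is read on the opposite strand as CACGC, and no match to the other motifs. Among 32851 mouse promoter windows cut to the same 157 bases, 17.2% held GCGTG, 9.72% ACGTG, 17.6% GGGCGG and 0.213% GCGTGGGCG. The Pdgfd and Pdgfra sequences of 250 bases held none of the motifs, which 28.2%, 16.6%, 32.7% and 0.536% of all windows of that length held in the same order. These matches describe letters only.

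Reads on genes numbered between 19845858 and 30809153 per library. The normalized count is the count of reads of a gene divided by 1 factor per library. The targeted gene Hif1a had 6914, 5424 and 4945 normalized counts in Mock against 697.3, 3142 and 1928 in HIF-1α-KD libraries, so the groups did not overlap and HIF-1α-KD replicate 1 was lowest (log2 fold change -1.82, limma adjusted p = 0.219). Of 8 epithelial markers only Cdh1, Krt8 and Krt20 passed the filter on low counts. The adhesion gene Cdh1 had 26.4 to 94.2 normalized counts, and the keratin gene Krt8 had 191 in Mock replicate 3 against 6.16 to 32.2 in the other libraries. The epithelial adhesion gene Epcam had between 2.31 and 37.5 normalized counts, also highest in Mock replicate 3, and the intestinal factor Cdx2 at most 2.42. Of 8 fibroblast markers 6 passed the filter, led by Dcn (15050 to 42580 normalized counts) and Lum (221.8 to 1581), whereas Pi16 and Cxcl12 did not pass (at most 12.1 normalized counts). The others that passed, Dpt, Fap, Col14a1 and Col15a1, had at most 655, 175, 135 and 50.8 normalized counts. Of 7 leukocyte markers, all but the T-cell gene Cd3e (at most 2.46 normalized counts) were highest in HIF-1α-KD replicate 3, where the macrophage gene Lyz2 had 8877 normalized counts against 1715 to 2615 in the other libraries.

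Transcripts of Pdgfa, Pdgfra and Pdgfrb made up most of the PDGF system of these cells, and Pdgfa was about 2-fold more abundant on average in HIF-1α-KD cells, in which every library lay above every Mock library. Log2(normalized count + 1) was compared with limma across the 12014 genes that passed a filter on low counts, 6 of the 7 PDGF genes among them, and p-values were adjusted over all genes tested. Of the 6 genes, limma called 0 at an adjusted p-value of 0.05, where it called 0.391% of all genes (0.00832% higher and 0.383% lower in HIF-1α-KD cells). Unadjusted p-values of limma were under 0.05 for Pdgfa and Pdgfrb, 2 of 6 genes and both higher, against 12.7% of all genes (7.04% higher and 5.69% lower). On the recovered reads edgeR also called 0 of the 6 and 0.391% of all genes, every one of them lower. The DESeq2 Wald test called 1, Pdgfa, and 2.36% of all genes (0.799% higher and 1.56% lower). The groups did not overlap for 1 of the 6 genes, against 19.2% of all genes tested (10.4% higher and 8.75% lower in HIF-1α-KD cells). The median log2 fold change of the 6 genes was 0.17, and that of all genes tested was 0.02.

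Levels of different genes were compared as FPKM, reads scaled to gene length and library size. The 4 ligand genes summed to 31.3, 43.9 and 59.3 FPKM in Mock against 92.9, 102 and 69.3 FPKM in HIF-1α-KD libraries, without overlap. Nearly all of this was Pdgfa, with 92.5%, 94.0% and 92.7% of the ligand FPKM in Mock against 99.4%, 96.6% and 93.5% in HIF-1α-KD libraries. The mean share was 93.0% ± 0.812 for Mock and 96.5% ± 2.94 for HIF-1α-KD (SD, n = 3 each), a difference of 3.45 percentage points with overlapping groups (two-sided exact permutation test, p = 0.2, where 3 libraries against 3 cannot go below 0.1). It was 2.02 points without HIF-1α-KD replicate 1 and 7.67 points when taken from normalized counts. The receptors Pdgfra and Pdgfrb summed to between 42.1 and 74.2 FPKM in Mock and between 54.9 and 90.7 FPKM in HIF-1α-KD libraries, so the ranges overlapped. Among the 12014 genes tested, the FPKM of Pdgfa lay between percentiles 69.5 and 89.6, that of Pdgfra between 58.2 and 78.9 and that of Pdgfrb between 58.1 and 76.1. Pdgfc lay between percentiles 6.70 and 23.5, whereas Pdgfb (1.33 to 3.88) and Pdgfd (0.30 to 12.6) were near the bottom.

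**Figure D1:**
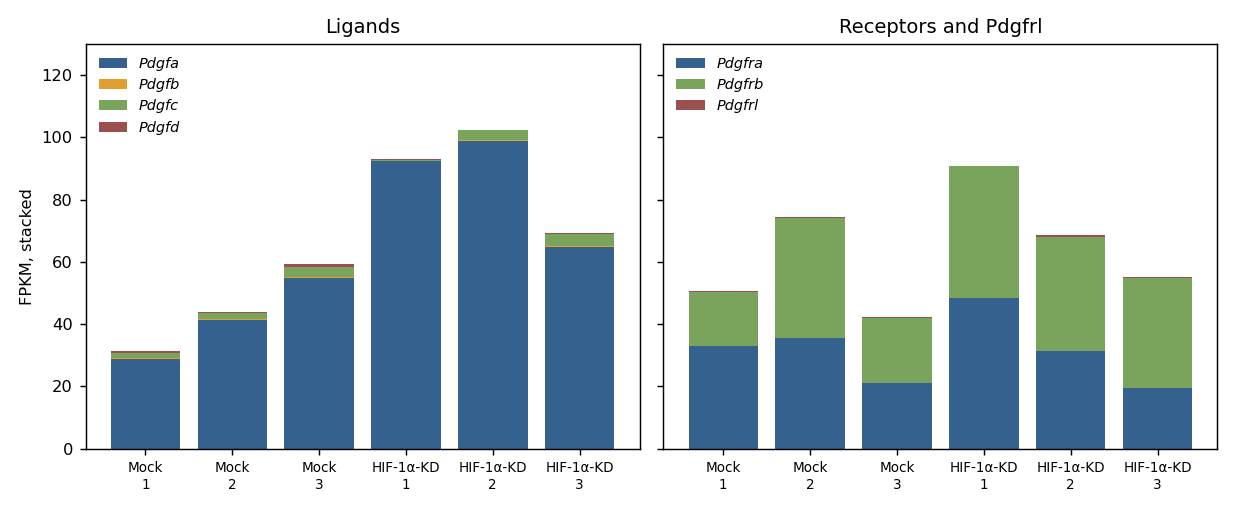
Stacked FPKM of the ligand genes (left) and of the receptor genes with Pdgfrl (right) in each of the 3 Mock and 3 HIF-1α-KD libraries, on the same vertical axis. Pdgfa fills at least 92.5% of each ligand bar, and Pdgfra and Pdgfrb fill the receptor bars in differing proportions.

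Pdgfa (ENSMUSG00000025856, GRCm38 chromosome 5, 138976014 to 138997370, minus strand) encodes the A chain of PDGF. It had 817.4, 1090 and 1545 normalized counts in Mock against 2516, 2590 and 1690 in HIF-1α-KD libraries. Each HIF-1α-KD library was above each Mock library, but HIF-1α-KD replicate 3 exceeded Mock replicate 3 only narrowly. The means were 1151 ± 368 for Mock and 2265 ± 500 for HIF-1α-KD (SD, n = 3 each). The log2 fold change was 1.00, with a 95% confidence interval of 0.41 to 1.59 (limma adjusted p = 0.228), and omitting single libraries left it between 0.78 (without Mock replicate 1) and 1.24 (without Mock replicate 3). The adjusted p-value was 0.242 in edgeR and 0.0197 in DESeq2, so only the latter called the gene. Pdgfa is among the genes the study singled out from these same libraries, and its difference is therefore not independent of that choice. The study also reported higher Pdgfa in sorted HIF-1α-KD tumor cells by quantitative PCR, which was not re-examined here. An antisense gene, 6330403L08Rik, overlaps Pdgfa on the opposite strand and was not analysed here. The libraries were made with a stranded kit, but whether reads were counted by strand is not given in the sources used here.

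Pdgfb (ENSMUSG00000000489, chromosome 15, 79995874 to 80014977) encodes the B chain, the ligand of both receptors. It was barely detected, with 8, 19 and 10 reads in Mock against 13, 11 and 26 reads in HIF-1α-KD libraries. The largest value, 26 reads, has a 95% exact Poisson interval of 17.0 to 38.1 reads for counting error only, and it belongs to HIF-1α-KD replicate 3, the library with the highest leukocyte marker sum. The part of these markers in it was not tested. The normalized counts were 9.848, 18.18 and 12.08 in Mock against 10.46, 13.19 and 30.03 in HIF-1α-KD libraries. The groups overlapped, with a log2 fold change of 0.30 (95% confidence interval -0.96 to 1.56, limma adjusted p = 0.850), and it was -0.13 without HIF-1α-KD replicate 3.

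Pdgfc (ENSMUSG00000028019, chromosome 3, 81036416 to 81214040) encodes a ligand of the α receptor that proteases such as tissue plasminogen activator release from a latent form. It had 134.2, 153.1 and 233.1 normalized counts in Mock against 31.37, 220.6 and 257.6 in HIF-1α-KD libraries. HIF-1α-KD replicate 1, which also had the least Hif1a, was far below the 5 other libraries, and the remaining HIF-1α-KD libraries lay within or above the Mock range. The log2 fold change was -0.46 (95% confidence interval -2.07 to 1.14, limma adjusted p = 0.821) and turned to 0.50 without that library (limma adjusted p = 0.549). It was -0.06 in edgeR and -0.05 in DESeq2, and the means were nearly equal, 173 ± 52.5 for Mock and 170 ± 121 for HIF-1α-KD (SD, n = 3 each).

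Pdgfd (ENSMUSG00000032006, chromosome 9, 6168584 to 6378850) encodes a latent ligand of the β receptor. It had 28.31, 13.40 and 67.64 normalized counts in Mock against 1.609, 7.194 and 23.10 in HIF-1α-KD libraries. These rest on few reads, 23, 14 and 56 in Mock against 2, 6 and 20 in HIF-1α-KD libraries, and HIF-1α-KD replicate 3 exceeded Mock replicate 2, so the groups overlapped. The log2 fold change was -1.94, the largest of the 6 genes in size, with a 95% confidence interval of -3.95 to 0.07 (limma adjusted p = 0.405). It was negative under each alternative, between -2.73 without HIF-1α-KD replicate 3 and -1.13 without HIF-1α-KD replicate 1 or with a pseudocount of 10.

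**Figure D2:**
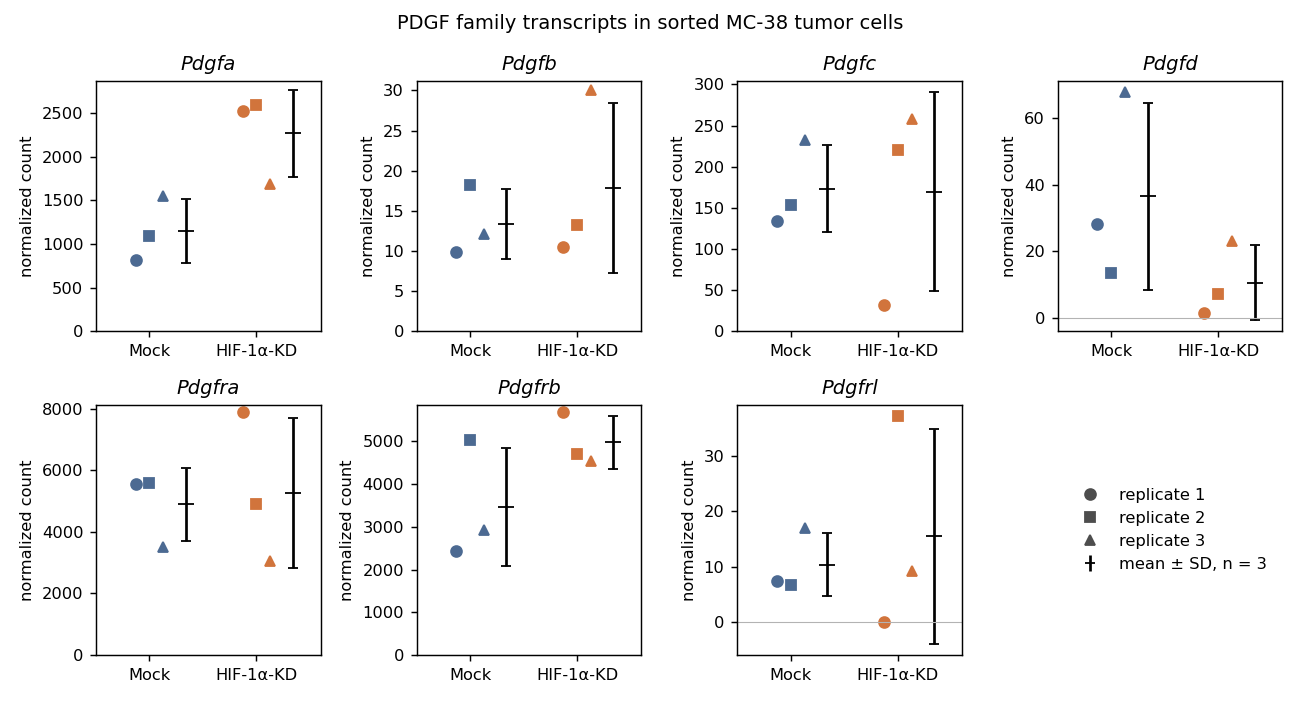
Normalized counts of the 7 PDGF genes on linear axes, one panel per gene, with a symbol for each replicate and bars for the mean ± SD of 3 libraries. The groups are separate in the Pdgfa panel (highest Mock library 1545, lowest HIF-1α-KD library 1690) and overlap in the other panels.

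Pdgfra (ENSMUSG00000029231, chromosome 5, 75152292 to 75198215) encodes the α receptor, which binds PDGF-A. It had 5557, 5597 and 3514 normalized counts in Mock against 7875, 4903 and 3043 in HIF-1α-KD libraries. Replicate 1 of HIF-1α-KD cells was the highest library and replicate 3 the lowest, so a single group spanned the whole range. The log2 fold change was 0.03 with a 95% confidence interval of -0.72 to 0.79 (limma adjusted p = 0.975), which leaves room for a fold between 0.609 and 1.72. It was -0.31 without HIF-1α-KD replicate 1 and -0.19 without Mock replicate 3. Beside this receptor of fibroblasts, the summed FPKM of the 8 fibroblast markers was 485 to 936 in Mock against 361 to 638 in HIF-1α-KD libraries, with overlap. Nearly all of this sum was Dcn, with 467 to 906 FPKM in Mock against 345 to 620 in HIF-1α-KD libraries. Lum was highest in HIF-1α-KD replicate 1 and lowest in HIF-1α-KD replicate 3, as Pdgfra was, but no other tested fibroblast marker was. Dcn was highest in Mock replicate 3 and lowest in HIF-1α-KD replicate 3. Dpt and Fap were lowest in HIF-1α-KD replicate 1 (14.5 and 12.1 normalized counts), where Pdgfra was highest. Col14a1 and Col15a1 were highest in HIF-1α-KD replicate 3 (135 and 50.8 normalized counts), where Pdgfra was lowest. The part of these markers in the level of Pdgfra was not tested.

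Pdgfrb (ENSMUSG00000024620, chromosome 18, 61045150 to 61085061) encodes the β receptor. It had 2428, 5025 and 2918 normalized counts in Mock against 5679, 4706 and 4544 in HIF-1α-KD libraries. The HIF-1α-KD libraries were close to one another, and Mock replicate 2 lay among them while the other Mock libraries were lower. The means were 3457 ± 1380 for Mock and 4976 ± 614 for HIF-1α-KD (SD, n = 3 each), and the log2 fold change was 0.59 with a 95% confidence interval of 0.01 to 1.17 (limma adjusted p = 0.387). Without Mock replicate 2 it was 0.90 (limma adjusted p = 0.180) and without Mock replicate 1 it was 0.37 (limma adjusted p = 0.716).

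Since pericytes carry the β receptor, their markers are given beside it, although fibroblasts can carry it too. The summed FPKM of 7 pericyte markers was 4.61 to 12.3 in Mock against 12.9 to 19.1 in HIF-1α-KD libraries, without overlap. Most of it was Cspg4, which encodes NG2, and the muscle filament gene Des, with Des the larger in Mock replicates 1 and 2. Cspg4 had 300.4, 702.4 and 1417 normalized counts in Mock against 2032, 1905 and 1489 in HIF-1α-KD libraries (log2 fold change 1.42, limma adjusted p = 0.296). Rgs5, a pericyte regulator of G protein signaling, had 16 to 30.6 normalized counts in Mock against 40.8 to 66.8 in HIF-1α-KD libraries (log2 fold change 1.15, limma adjusted p = 0.315). The groups overlapped for the 2 other tested markers, Des (log2 fold change 0.39, limma adjusted p = 0.670) and Notch3 (0.04, adjusted p = 0.973). The defining pericyte marker Higd1b was at 0 in all 6 libraries, and Kcnj8 and Abcc9 had at most 1.91 and 12.7 normalized counts. The pericyte sum separated the groups as Pdgfa did, and the part of these markers in the levels of Pdgfrb and Pdgfa was not tested. The sort selected cells with green fluorescent protein, which host cells do not carry, and its purity was not tested. The leukocyte gene Lyz2 had 1715 to 8877 normalized counts in the sorted libraries. In these bulk samples, fewer cells of a type and less RNA per cell cannot be told apart.

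Pdgfrl (ENSMUSG00000031595, chromosome 8, 40926212 to 40990785) encodes a receptor-like protein without a kinase domain. It did not pass the filter, with 6, 7 and 14 reads in Mock against 0, 31 and 8 reads in HIF-1α-KD libraries. The lowest and the highest library both belonged to HIF-1α-KD cells, and for the library with 0 reads the upper 95% exact Poisson limit is 3.69 reads. The mean was 10.3 ± 5.71 normalized counts for Mock and 15.5 ± 19.4 for HIF-1α-KD (SD, n = 3 each), whereas the fit on the log scale without the filter gave a log2 fold change of -0.52 (limma adjusted p = 0.875). The sign thus differed between the means and the log scale, on which the library at 0 is farthest from the rest.

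**Figure D3:**
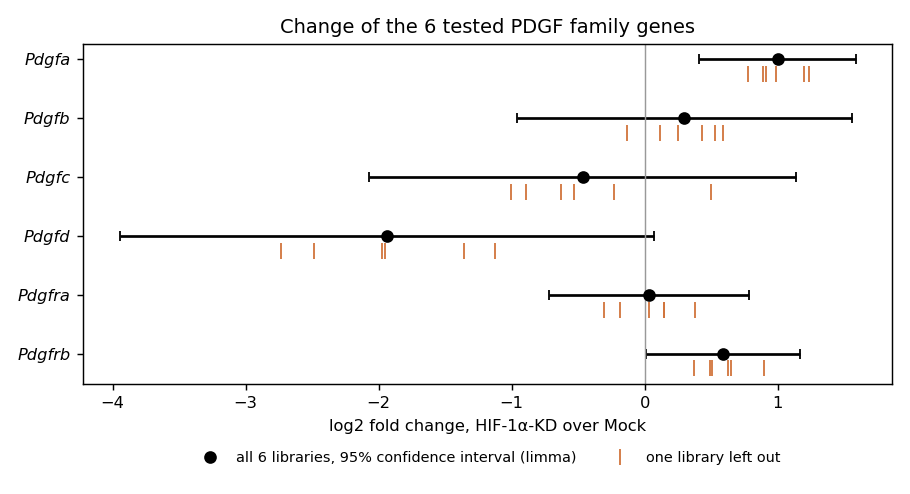
Log2 fold change of the 6 tested PDGF genes, HIF-1α-KD over Mock, with the 95% confidence interval of limma (black) and the values with one library left out (orange marks). The marks lie on 1 side of 0 for Pdgfa, Pdgfd and Pdgfrb and on both sides for Pdgfb, Pdgfc and Pdgfra.

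Receptor and ligand levels were also set against each other within each library, by ratios chosen after the values were seen. Pdgfra had 1.89, 0.921 and 0.995 times the FPKM of Pdgfrb in Mock against 1.15, 0.861 and 0.553 times in HIF-1α-KD libraries. Pdgfa had 0.877, 1.16 and 2.62 times the FPKM of Pdgfra in Mock against 1.91, 3.15 and 3.31 times in HIF-1α-KD libraries. Both sets of ratios overlapped between the groups. The log2 ratio differed by 0.97 for Pdgfa over Pdgfra, by 0.41 for Pdgfa over Pdgfrb and by -0.56 for Pdgfra over Pdgfrb (two-sided exact permutation tests, p = 0.2, 0.4 and 0.4, each 0.4 when adjusted over the 3 ratios). The design cannot give a p-value under 0.1 in these permutation tests, so they cannot decide whether the genes changed unequally.

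The genes whose log2 normalized counts followed each PDGF gene most closely over the 6 libraries are given by Pearson r as a description, since the libraries of a gene pair share depth and group and the highest of 12014 such values is always large. For Pdgfa these were Mlph (r = 0.997), Enpp2, which encodes the lysophosphatidic acid producing enzyme autotaxin (r = 0.992), and Tmem129 (r = 0.988). Enpp2 had 291.8, 583.8 and 1045 normalized counts in Mock against 3818, 3528 and 1827 in HIF-1α-KD libraries (log2 fold change 2.37, limma adjusted p = 0.104). The deviations from the group means also followed Pdgfa for these 3 genes (r = 0.992, 0.989 and 0.963). For Pdgfra the closest were Cmtm4 (r = 0.995), Rnd2 (r = 0.986) and Hsd17b4 (r = 0.981), and for Pdgfrb they were Dnmt3a (r = 0.996), Urb2 (r = 0.990) and Brd1 (r = 0.989). For Pdgfd they were Dmrt2 (r = 0.992), Pmel (r = 0.987) and Tinagl1 (r = 0.986), and for Pdgfb Zfp292 (r = 0.993), Ccdc66 (r = 0.984) and Cep152 (r = 0.982). Those of Pdgfc were Gm4955 (r = 0.995) and the interferon-stimulated genes Oasl2 (r = 0.992) and Isg15 (r = 0.991). Among the PDGF genes, the deviations of Pdgfra from the group means ran opposite to those of Pdgfd (r = -0.97) and Pdgfc (r = -0.87), whereas those of Pdgfa and Pdgfra were nearly unrelated (r = 0.09). The negative values were the most extreme of the pairs of PDGF genes. Pdgfd rests on few reads, and for Pdgfc HIF-1α-KD replicate 1 was far below the other libraries.

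To place the receptors in their pathway, 5 lists were described, with 73 genes of which 65 were tested. At an adjusted p-value of 0.05 limma called 0 of them, and the unadjusted p-value was under 0.05 for 11 (16.9%), against 12.7% of all genes. edgeR also called 0 of them, and DESeq2 called 2, the kinase genes Map2k1 and Pik3cb, where it called 2.36% of all genes. The groups did not overlap for 11 (16.9%), against 19.2% of all genes.

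Genes for processing and binding of PDGF had a median log2 fold change of 0.19 (9 tested, 7 above 0). The co-receptor gene Nrp2 had the smallest p-value (log2 fold change 0.48, limma adjusted p = 0.384), followed by Nrp1 (0.36, adjusted p = 0.475) and Furin, which encodes a protease that cleaves PDGF-A and PDGF-B precursors (0.36, adjusted p = 0.615). Plat, the tissue plasminogen activator that activates PDGF-C (0.18, adjusted p = 0.703), and Sparc, a matrix protein that binds PDGF (0.25, adjusted p = 0.705), came next. Pcsk5 and Pcsk6 had 0 reads in all libraries. St14, which encodes the protease matriptase, did not pass the filter either.

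Of 33 genes that carry the signal from the receptors, all were tested, with a median log2 fold change of 0.09 and 21 above 0. The groups did not overlap for 7, against 19.2% of all genes. Map2k1, which encodes the kinase MEK1, had 4219, 3612 and 3505 normalized counts in Mock against 1765, 2398 and 2395 in HIF-1α-KD libraries (log2 fold change -0.80, limma adjusted p = 0.139, DESeq2 adjusted p = 0.00349). Pik3cb, a catalytic subunit of PI3 kinase, had 1898, 1847 and 1149 normalized counts in Mock against 772.9, 983.2 and 865.2 in HIF-1α-KD libraries (log2 fold change -0.87, limma adjusted p = 0.219, DESeq2 adjusted p = 0.00869). For both genes the groups were separate. The phospholipase Plcg1 (0.39), the phosphatase Ptpn11 (0.41) and the transcription factor Stat3 (0.49) had log2 fold changes above 0 with overlapping groups (limma adjusted p = 0.381, 0.381 and 0.385). The brakes on the receptors, ubiquitin ligases and phosphatases, had a median log2 fold change of 0.07 (8 tested, 4 above 0, limma adjusted p of at least 0.483), among them Ptprj (0.44), Ptpn1 (0.28), Ptpn12 (0.27) and Ptpn2 (-0.26).

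Among the relatives of the PDGF genes, the median log2 fold change was -0.11 (11 tested, 4 above 0). The lymphatic growth factor gene Vegfc had 161.3, 118.7 and 432.4 normalized counts in Mock against 462.5, 821.4 and 482.8 in HIF-1α-KD libraries (log2 fold change 1.48, limma adjusted p = 0.276). Its relative Figf, which encodes VEGF-D, had 968.8, 772.3 and 739.3 in Mock against 208.3, 588.7 and 536 in HIF-1α-KD libraries (log2 fold change -1.02, limma adjusted p = 0.329). The groups also did not overlap for Vegfa, the main angiogenic VEGF, with 2232, 2102 and 2240 normalized counts in Mock against 1649, 1752 and 1562 in HIF-1α-KD libraries (log2 fold change -0.41, limma adjusted p = 0.294). They were separate for Vegfc and Figf and overlapped for the VEGF receptor gene Flt1 (1.16, adjusted p = 0.375) and for Vegfb (-0.29, adjusted p = 0.535). Among related receptor genes, Kit, Kdr and Flt3 had mean FPKM of 0.0948, 0.0395 and 0.00997, Csf1r had 2.16 to 9.81 FPKM and Flt1 had 3.02 to 19.5 FPKM. The lowest FPKM in any library was 19.6 for Pdgfra and 17.5 for Pdgfrb, so the range of Flt1 reached into that of Pdgfrb.

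Of the factors known to bind the Pdgfa promoter, 4 were tested and all had log2 fold changes below 0, with a median of -0.55. Egr1, an early response factor, had 7477, 9425 and 8239 normalized counts in Mock against 989.3, 3785 and 5712 in HIF-1α-KD libraries (log2 fold change -1.59, limma adjusted p = 0.311), without overlap and opposite in sign to Pdgfa. Klf5 (-0.92, adjusted p = 0.530), Sp3 (-0.17, adjusted p = 0.812) and Sp1 (-0.05, adjusted p = 0.938) had overlapping groups.

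**Figure D4:**
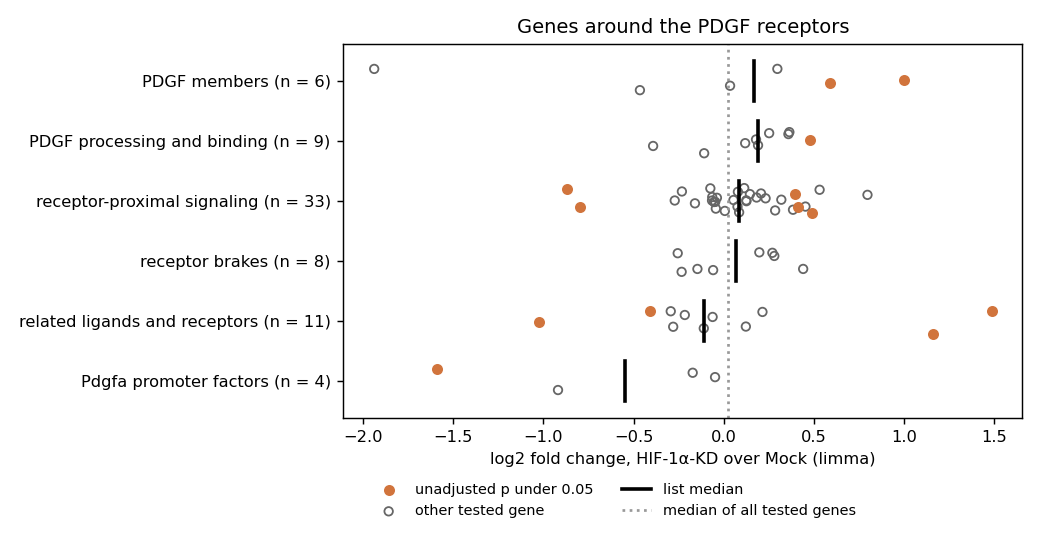
Log2 fold change of each tested gene in the PDGF group and the 5 lists, with filled points for an unadjusted limma p-value under 0.05, a bar for the median of the list and a dotted line for the median of all genes tested (0.02). The list medians lie between -0.55 and 0.19, and no gene shown passed an adjusted p-value of 0.05 in limma.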

How the data were processed

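Polyadenylated RNA of sorted tumor cells was sequenced in 3 libraries per group. The methods of the study list STAR for alignment to GRCh38, featureCounts for counting and DESeq2 for testing, whereas the submitters' processing notes name GRCm38 and edgeR, and the identifiers are mouse Ensembl genes. The deposited table of 22880 genes holds normalized counts, a signal made by the authors from counts and 1 factor for each library, and FPKM, which the authors scaled to gene length and library size. Its log2 ratios, p-values, false discovery rates and clusters, the authors' own comparison, were not used.

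Reads were recovered by dividing out that factor, and 100% of values up to 300 reads were whole within the rounding of the printed digits plus 0.02 reads. Larger values have 4 significant digits, so read totals are approximate. Genes were filtered with filterByExpr (minimum count of 10 by group) of edgeR 4.0.16. The main test was limma 3.58.1 (trend on, two-sided) for log2(normalized count + 1), with Benjamini-Hochberg adjustment. With this pseudocount the fold changes of genes with few reads come out smaller than with 0.1. Alternatives were edgeR and DESeq2 1.42.0 on recovered reads, scalings, filter, pseudocounts of 0.1 and 10, FPKM, a replicate block and leaving out each library. The tests were also run on counts simulated with a single dispersion for all genes, which need not match these libraries, and no result here rests on them. The PDGF genes and lists were chosen with earlier results of these data known. Named genes were the PDGF genes, Hif1a, up to 5 genes per list with the smallest p-values, the 3 genes most alike, the nearest tested neighbors, and markers. The values of 1 list gene that the rule names are not reported here. Positions are those of GENCODE M21 (GRCm38), matched by Ensembl identifier. Software was R 4.3.3 and Python 3.11.15 with scipy 1.17.1, numpy 2.4.6, matplotlib 3.10.9 and pandas 2.3.3.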

Additional observations from a re-analysis of the deposited data

How the results depend on the processing

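The DESeq2 Wald test was the only alternative that changed a call: it called 1 of the PDGF genes (Pdgfa, adjusted p = 0.0197) and 2 genes of the 5 lists, whereas limma and edgeR called 0 of each. Over the other alternatives the adjusted p of Pdgfa was at most 0.332, and with each library left out it lay between 0.147 and 0.50. With a replicate block limma called 0 PDGF genes and 0 list genes, and the difference in the Pdgfa share of ligand FPKM was 3.45 percentage points (exact sign-flip permutation test, p = 0.25, the smallest 3 pairs allow). The replicate numbers were not treated as pairs, because the deviations of libraries of the same number correlated at -0.16, -0.19 and 0.06 and not every library correlated best with its own number. The share difference was 7.67 percentage points by normalized counts and between 2.02 and 4.96 with each library left out. With single libraries left out, the log2 fold change of Pdgfb was -0.13 (without HIF-1α-KD replicate 3) to 0.59, that of Pdgfc -1.0 to 0.50 (without HIF-1α-KD replicate 1), and that of Pdgfra -0.31 (without HIF-1α-KD replicate 1) to 0.38, with -0.19 without Mock replicate 3. The cause was not tested. Few reads limit Pdgfb, Pdgfd and Pdgfrl. Over all genes, DESeq2 called 283 and limma 47, against 1 by limma without a trend and 36 after scaling by total reads. The limma count was 0 without Mock replicate 3, without HIF-1α-KD replicate 2 or with the replicate block, and between 2 and 37 without each other library.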

Other observations

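The nearest tested genes on both sides of the 7 PDGF genes, 14 in all, were looked up on GRCm38. The groups did not overlap for 4 of them, against 19.2% of all genes. For the 10 others they overlapped, with log2 fold changes between -0.58 and 0.53 and limma adjusted p-values of at least 0.466. Fam20c, which encodes a kinase of secreted proteins, lies 166 kb from Pdgfa and had 82.5, 143.5 and 130.5 normalized counts in Mock against 216.4, 195.4 and 146.7 in HIF-1α-KD libraries (log2 fold change 0.66, limma adjusted p = 0.390), without overlap of the groups. Prkar1b, 19.9 kb away on the other side, had a log2 fold change of -0.13 (limma adjusted p = 0.932). Next to Pdgfrb, the kinase gene Camk2a had 9.85, 8.61 and 8.46 normalized counts in Mock against 68.4, 56.4 and 19.6 in HIF-1α-KD libraries (log2 fold change 2.13, limma adjusted p = 0.219), again without overlap, and the macrophage receptor gene Csf1r on its other side had a log2 fold change of 0.12 (limma adjusted p = 0.941). Casp12, 796 kb from Pdgfd, had a log2 fold change of -1.01 (limma adjusted p = 0.304), and the ribosomal protein gene Rpl3, 62.8 kb from Pdgfb, had -0.51 (limma adjusted p = 0.319).

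Pdgfc and the interferon-stimulated gene Isg15 had the same order of libraries at their extremes. Isg15 had 690.6, 935.9 and 1314 normalized counts in Mock against 224.4, 1028 and 1371 in HIF-1α-KD libraries, lowest in HIF-1α-KD replicate 1 and highest in HIF-1α-KD replicate 3, as Pdgfc was. Its groups overlapped (log2 fold change -0.47, limma adjusted p = 0.781).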
